A study of Mus musculus with 6 samples.

Results

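The 10 genes S100a4, S100a6, S100a10, S100a11, Lgals1, Lgals3, Anxa1, Anxa2, Crip1 and Vim are known to rise together when T cells are activated or take on an effector or memory state. They were listed by symbol, with earlier results of these data known, and all 10 were found among the 32801 gene symbols of the table. RNA was sequenced from regulatory T cells (Treg) of the thymus in NOD mice, which develop autoimmune diabetes spontaneously, and in C57BL/6 (B6) mice. Each strain gave 3 libraries from animals aged 3 weeks, with no treatment named, and all cells were sorted as GFP-negative, CD4+CD8- and Thy1.1+. The labels used here do not say what drives GFP or Thy1.1, nor whether the replicates came from separate animals. The p-values therefore rest on the spread among the 6 libraries alone, part of which may be technical. By its title, the series asks how new Treg form in the thymus of young NOD mice and how cells that return to the thymus limit this. The strains were compared here within the GFP-negative cells.

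S100 proteins are small calcium-binding proteins of the EF-hand type that act as dimers. Annexins bind membrane phospholipids when calcium rises, and the annexin A2 and S100A10 proteins form a complex under the plasma membrane. Galectins bind beta-galactoside sugars on glycoproteins and can cross-link T cell surface receptors, while vimentin is the intermediate filament of lymphocytes.

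The S100 genes of the set lie on mouse chromosome 3 (mm10). S100a4 (90603771 to 90606045) and S100a6 (90612882 to 90624181) stand in a cluster with 10 other S100 genes of the table. S100a11 (93520488 to 93526287) and S100a10 (93555080 to 93564643) lie 2.90 Mb away, with 28.8 kb and no annotated protein-coding gene between them. The stretches before the start sites of S100a11, the one gene of the set called between strains, of Anxa2, and of S100a4 and S100a6 from the other cluster are shown for comparison. Capitals mark matches, on either strand, to TGANTCA (the AP-1 core), GGGCGG (the GC box) and TATAAA (the TATA box). Sequences are from RefSeq (GRCm38.p6), 250 bases up to the start site.
S100a11, chr3:93520246-93520495, + strand: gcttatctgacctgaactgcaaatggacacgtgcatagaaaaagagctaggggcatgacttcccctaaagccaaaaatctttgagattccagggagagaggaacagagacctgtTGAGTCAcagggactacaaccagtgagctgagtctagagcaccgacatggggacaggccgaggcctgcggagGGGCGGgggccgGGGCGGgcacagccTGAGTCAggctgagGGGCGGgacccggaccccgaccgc
Anxa2, chr9:69453433-69453682, + strand: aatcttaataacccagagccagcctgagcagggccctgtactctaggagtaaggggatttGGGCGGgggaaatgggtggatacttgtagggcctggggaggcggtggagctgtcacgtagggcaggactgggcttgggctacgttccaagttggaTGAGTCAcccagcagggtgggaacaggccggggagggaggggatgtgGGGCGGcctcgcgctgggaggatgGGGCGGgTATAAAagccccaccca
S100a4, chr3:90603520-90603769, + strand: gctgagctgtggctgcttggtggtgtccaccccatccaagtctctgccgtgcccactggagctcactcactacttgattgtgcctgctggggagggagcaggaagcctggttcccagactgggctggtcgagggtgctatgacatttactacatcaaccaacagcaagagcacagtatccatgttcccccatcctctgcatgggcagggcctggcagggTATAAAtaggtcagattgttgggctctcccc
S100a6, chr3:90612644-90612893, + strand: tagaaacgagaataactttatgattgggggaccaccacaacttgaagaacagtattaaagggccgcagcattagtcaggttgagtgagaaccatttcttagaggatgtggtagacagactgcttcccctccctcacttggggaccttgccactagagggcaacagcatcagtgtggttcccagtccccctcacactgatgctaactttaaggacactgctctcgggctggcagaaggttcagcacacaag
The S100a11 window held TGANTCA at 2 places and GGGCGG at 3. The Anxa2 window held TGANTCA once, GGGCGG at 3 places and TATAAA once, S100a4 held only TATAAA, and S100a6 held none of the 3. Among 32851 windows of the same length, 6.75% held TGANTCA and 0.338% held it at 2 or more places, while 32.7% held GGGCGG and 12.4% TATAAA. Of the 8 genes of the set with a window in that table (Anxa1, Anxa2, Crip1, Lgals3, S100a4, S100a6, S100a11 and Vim), 2 held TGANTCA, 4 held GGGCGG and 4 held TATAAA. A match describes letters only.

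Most of the set was not called between strains. Of the 10 genes, 9 passed the filter on low values, and of these 0 were called higher and 1, S100a11, was called lower in NOD (limma, adjusted p below 0.05). Over all 16442 genes tested, 4.59% were called higher and 5.30% lower, 9.89% in either direction. The median log2 fold change of the 9 genes was 0.24, and 0.01 over all genes tested. The 8 other tested genes did not pass the test, with point estimates above 0 for 6 of them (S100a6, S100a10, Lgals1, Lgals3, Anxa2 and Vim) and below 0 for Anxa1 and Crip1. An interval clear of 0 before adjustment was found for 4 genes (20.3% of all genes tested), of which 3 were on the higher side (S100a6, Lgals3 and Anxa2, against 9.77% of all genes tested on that side). All values are normalized counts, which are counts scaled by the size factor of each library and rounded, with library totals from 16097369 to 17625903.

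**Figure D1:**
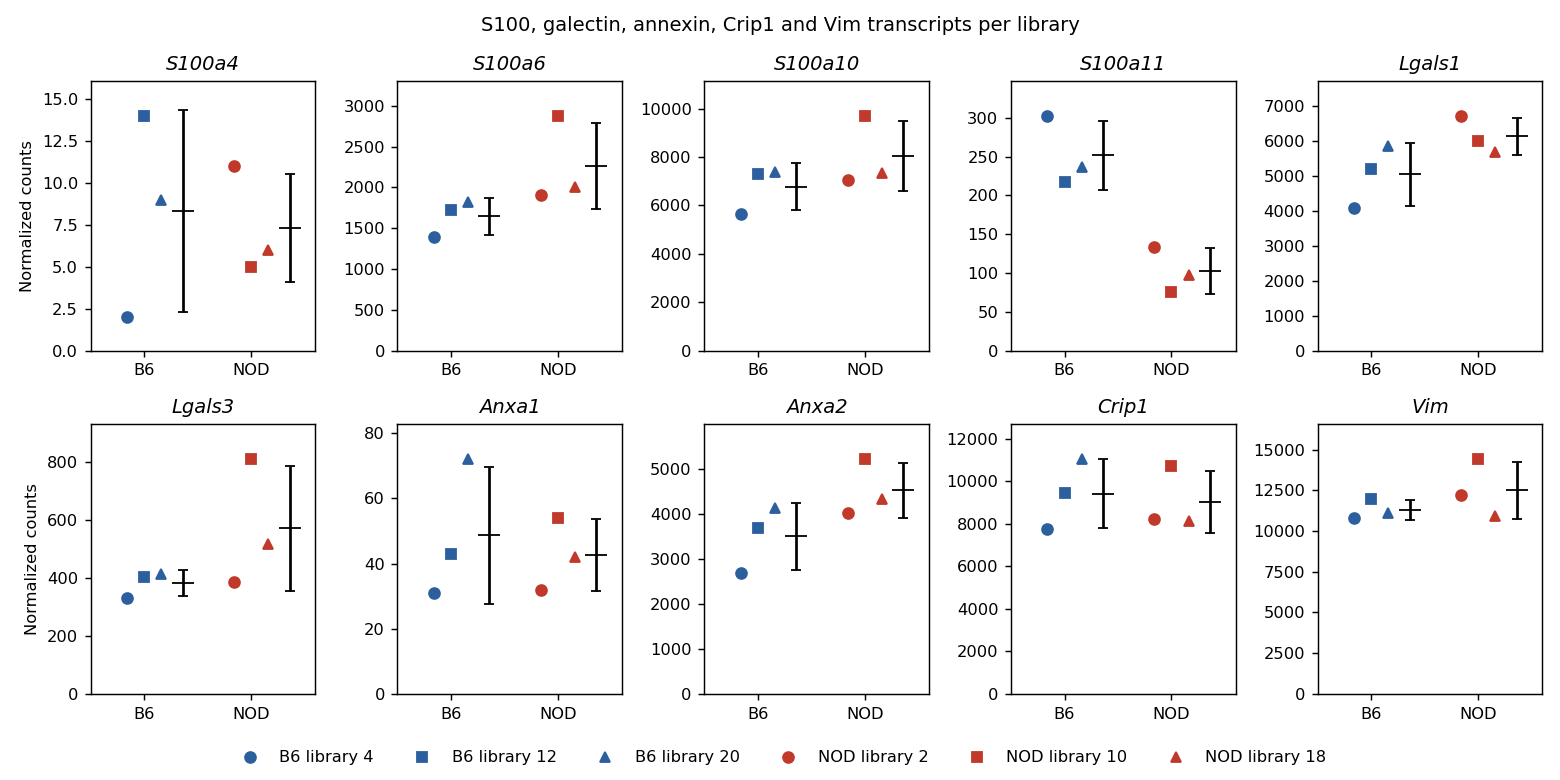
Normalized counts of each gene in each library, with B6 in blue, NOD in red, a symbol per library, and the mean and SD (n = 3) at the right of each strain; each panel has its own linear axis from 0. The 3 NOD libraries of S100a11 (75 to 134) lie below all B6 libraries (217 to 302), and S100a4 stays at 14 or less in every library.

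S100a11, whose protein takes part in membrane repair and vesicle traffic, fell in NOD. It stood at 134, 75 and 98 normalized counts in NOD libraries 2, 10 and 18 and at 302, 217 and 236 in B6 libraries 4, 12 and 20. Every NOD library lay below every B6 library, an arrangement found in that direction for 11.9% of all genes tested. The NOD mean was 102 ± 29.7 and the B6 mean 252 ± 44.6 (SD, n = 3 per strain), 2.46-fold higher in B6. The log2 fold change was -1.32 ± 0.23 (SE, 95% interval -1.83 to -0.80, limma adjusted p = 0.0035). The call held with each library left out in turn (adjusted p of 0.0019 to 0.029). It was lost without NOD library 10 and B6 library 4 together (-0.98, limma adjusted p = 0.056), a pair chosen after the data were seen. The authors' deposited table gives -1.30 for the same gene, with an adjusted p of 0.00187. Its mean level there, 83.6, lies below both strain means here, so the authors' fit may not rest on these 6 libraries alone. In bulk samples, fewer cells that express a gene and less RNA per cell cannot be told apart.

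The counting of S100a11 is uncertain, because the genome holds processed pseudogenes of it. Gm12854, on chromosome 4, matches the S100a11 transcript at 99% identity over 297 bases of its 511. NOD libraries gave 43, 22 and 67 for it and B6 libraries 38, 23 and 45, so the strains overlapped. Of the 3 other copies in the table, Gm13640 reached 8, Gm7665 reached 4 and S100a11-ps reached 2. S100a11 and these 4 copies summed to 188, 98 and 168 in NOD and 348, 249 and 284 in B6. The sums lay lower in every NOD library as well, with a B6 mean 1.94 times that of NOD, against 2.46 for S100a11 alone.

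S100a10, the neighbour of S100a11, was not called. Its protein lacks calcium binding and links annexin A2 to the membrane skeleton and to plasminogen. The NOD libraries held 7054, 9686 and 7336 and the B6 libraries 5649, 7281 and 7379, and the strains overlapped. The log2 difference was 0.24, with a 95% interval of -0.08 to 0.56 (limma adjusted p = 0.43). It was 0.098 without NOD library 10 and 0.12 without B6 library 4. The intervals of the 2 neighbouring genes did not overlap, while the difference between their strain effects was not tested.

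For S100a6, which encodes calcyclin, NOD libraries read 1904, 2871 and 2007 and B6 libraries 1390, 1726 and 1817. All NOD libraries lay above all B6 libraries, as they did for 12.1% of all genes tested, although NOD library 2 exceeded B6 library 20 by little. On the log2 scale NOD exceeded B6 by 0.44 (SE 0.16, 95% interval 0.09 to 0.80), which missed the threshold after adjustment (limma adjusted p = 0.13). Without NOD library 10 this value was 0.26. The authors' deposited table gives 0.46 with an adjusted p of 0.0945, and a mean level (852) below every library used here.

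S100a4, a common marker of effector and memory T cells whose protein binds non-muscle myosin, was close to absent. Its counts were 11, 5 and 6 in NOD and 2, 14 and 9 in B6, and it failed the filter of at least 10 in at least 3 libraries. Neither strain was consistently high, and no fold change is given at this level. An annotated protein-coding transcript, Gm42674, shares 51.7% of the exon bases of S100a4 on the same strand. How the counting treated reads in that stretch is not given in the sources used here, and Gm42674 was not analysed here. The authors' deposited table also gives no call for S100a4 (adjusted p of 0.956), from a fit whose libraries may differ from those used here.

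Of 15 further genes listed with the S100 family, 14 were in the table and 5 passed the filter (S100a1, S100a13, S100b, S100g and S100pbp, the gene of an S100P-binding protein). Calls numbered 0 in both directions, with a median log2 fold change of 0.04, and 1 was lower without NOD library 18. S100a13, which lies in the same cluster as S100a4 and S100a6, had a mean of 826 ± 54.0 in NOD and 725 ± 177 in B6. Among the 14 S100a genes of chromosome 3, 10 never exceeded 33 in any library. S100a8 and S100a9, the calprotectin genes of neutrophils and monocytes, lay at 0 to 9 normalized counts in NOD and at 7 to 33 in B6, too low to be tested.

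The annexin genes of the set lie on chromosome 9 (Anxa2, 69453620 to 69491795) and chromosome 19 (Anxa1, 20373428 to 20390944), and neither was called. Anxa2, which encodes the membrane partner of S100A10, was at 4012, 5207 and 4334 in the NOD libraries and 2674, 3691 and 4127 in the B6 libraries. NOD library 2 fell below B6 library 20, so the strains overlapped, and the log2 difference was 0.38 (95% interval 0.03 to 0.74, limma adjusted p = 0.20). Without B6 library 4 it was 0.20. An antisense transcript, Gm16144, overlaps 2.63% of the exon bases of Anxa2. Anxa1, whose protein is induced by glucocorticoids and signals through formyl peptide receptors, stood at only 32, 54 and 42 in NOD and 31, 43 and 72 in B6. The interval of its log2 difference (-0.13) was wide, from -0.91 to 0.65 at 95% (limma adjusted p = 0.90). Differences within that interval cannot be told apart with these 6 libraries. Of 10 other annexin genes, 5 were tested and 0 were called. Anxa6 had means of 7984 ± 934 (NOD) and 7167 ± 65.9 (B6), with a log2 difference of 0.15. Anxa7, named here after its values were seen, had means of 800 ± 160 and 1103 ± 52.7 (log2 difference -0.48, limma adjusted p = 0.059). It was called lower with equal library totals, with quantile normalization and without NOD library 10, alone or with B6 library 4 or 12.

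The galectin genes of the set, on chromosome 15 (Lgals1, 78926725 to 78930465) and chromosome 14 (Lgals3, 47367751 to 47386160), were not called either. Lgals1 encodes galectin-1, a secreted lectin linked to Treg suppression. Its libraries read 6720, 5996 and 5707 in NOD and 4092, 5218 and 5870 in B6. B6 library 20 reached into the NOD range, and NOD minus B6 came to 0.29 on the log2 scale (95% interval -0.01 to 0.59, limma adjusted p = 0.26). Without B6 library 4 this value was 0.15. Lgals3 encodes galectin-3, a lectin that forms lattices on branched glycans. For Lgals3 the NOD libraries gave 386, 809 and 517 and the B6 libraries 331, 403 and 415. NOD library 10 was the highest and NOD library 2 lay within the B6 range, and NOD minus B6 came to 0.51 on the log2 scale (95% interval 0.01 to 1.02, limma adjusted p = 0.24). Without NOD library 10 the difference of Lgals3 was 0.23. Of 9 other genes of the family listed, 7 were tested, 1 was called higher and 0 lower. Lgalsl, which encodes a galectin-related protein that does not bind lactose, stood at 358, 349 and 331 in NOD and at 217, 178 and 145 in B6. Every NOD library lay above every B6 library (log2 fold change 0.96 ± 0.17, limma adjusted p = 0.0041). Lgals9, which encodes the galectin that binds TIM-3, averaged 785 ± 37.1 in NOD and 697 ± 39.6 in B6 without a call (log2 difference 0.17, limma adjusted p = 0.47).

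Crip1, on chromosome 12 (113146316 to 113153879), encodes a small LIM-domain protein. Its NOD libraries read 8218, 10718 and 8131 and its B6 libraries 7773, 9435 and 11032. The NOD libraries lay within the B6 range, and the log2 difference was -0.06 (95% interval -0.39 to 0.27, limma adjusted p = 0.89). Vim, the vimentin gene on chromosome 2 (13573927 to 13582826), stood at 12192, 14401 and 10938 in NOD and at 10808, 11974 and 11140 in B6. NOD library 18 lay between B6 libraries 4 and 20, and the log2 difference was 0.14 (95% interval -0.13 to 0.40, limma adjusted p = 0.61). It was 0.032 without NOD library 10 and 0.23 without NOD library 18. For Vim the interval corresponds to a ratio of NOD to B6 between 0.917 and 1.32. Of 18 other LIM-domain and intermediate filament genes, 14 were tested and 0 were called, against 9.89% of all genes tested. Their median log2 fold change was -0.16. Without NOD library 10, 3 of these genes were called lower, and 1 without it and B6 library 4 or 12.

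**Figure D2:**
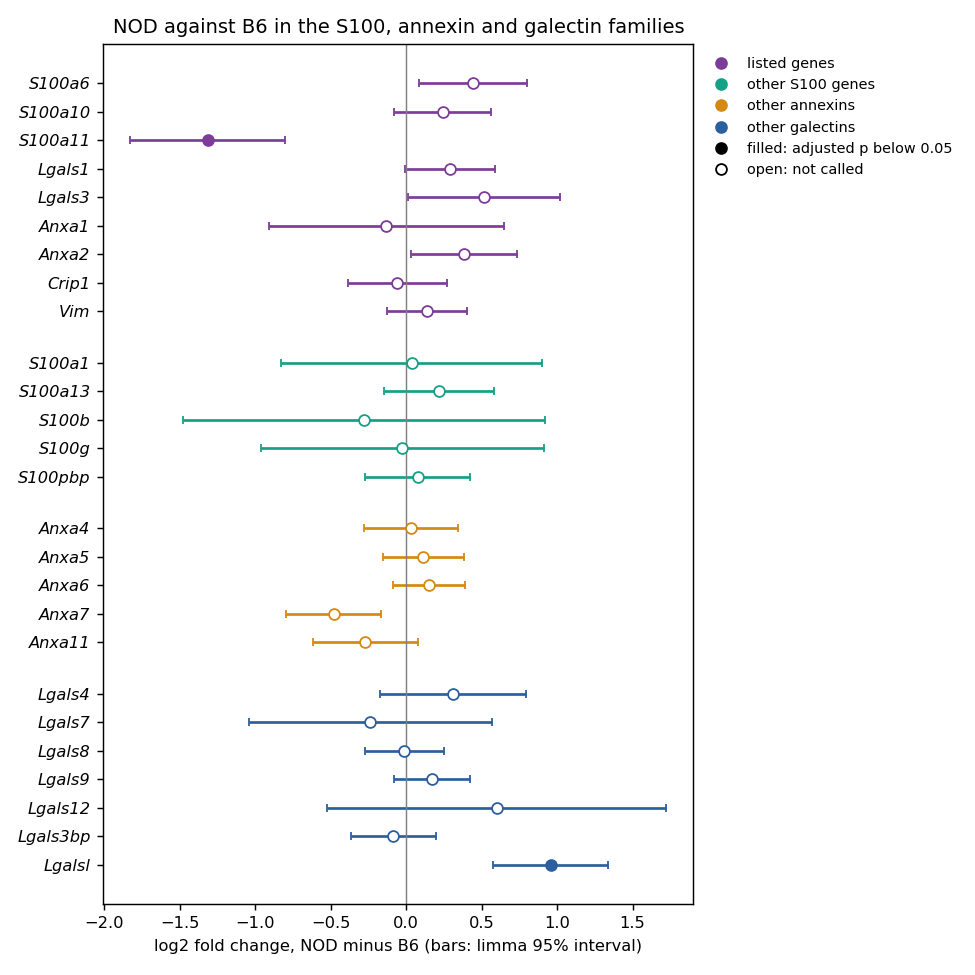
log2 fold change of NOD minus B6 with limma's 95% interval for the 9 tested genes of the set and the tested members of their families, filled where the adjusted p was below 0.05. S100a11 (-1.32) and Lgalsl (0.96) are the filled points, and the other 24 genes are open.

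Levels of different genes were compared per kilobase of annotated exon. By this measure the order was Lgals1 (6202 ± 980 normalized counts per kilobase, SD over 6 libraries), S100a10 (6104 ± 1071), Crip1 (4043 ± 616), Vim (2511 ± 284), S100a6 (1428 ± 364) and Anxa2 (1074 ± 222). S100a11 (346 ± 173) and Lgals3 (257 ± 93.5) followed, and Anxa1 (15.7 ± 5.29) and S100a4 (13.4 ± 7.46) came last. The order of S100a11 and Lgals3 differed between strains, since S100a11 was at 200.3 ± 58.2 in NOD and 492 ± 87.3 in B6, and Lgals3 at 307 ± 117 and 206 ± 24.5. The ranges over the 6 libraries overlapped between Lgals1 and S100a10, S100a10 and Crip1, S100a6 and Anxa2, S100a11 and Lgals3, and Anxa1 and S100a4. Neighbours in the order whose ranges did not overlap were Crip1 and Vim, Vim and S100a6, Anxa2 and S100a11, and Lgals3 and Anxa1. Among 12063 tested protein-coding genes, the 6 most abundant of the set stood between the 95.8 and the 99.4 percentile, S100a11 at 82.3, Lgals3 at 76.2 and Anxa1 at 18.2. The length used changed the upper part of the order. Annotated exons of Crip1 span 2280 bases and its principal transcript 516. Per kilobase of principal transcript Crip1 came first at 17864 ± 2721, above S100a10 at 10799 ± 1896. By that length S100a10 lay above Lgals1 (7001 ± 1106), and Anxa2 (2770 ± 573) above S100a6 (2671 ± 680).

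**Figure D3:**
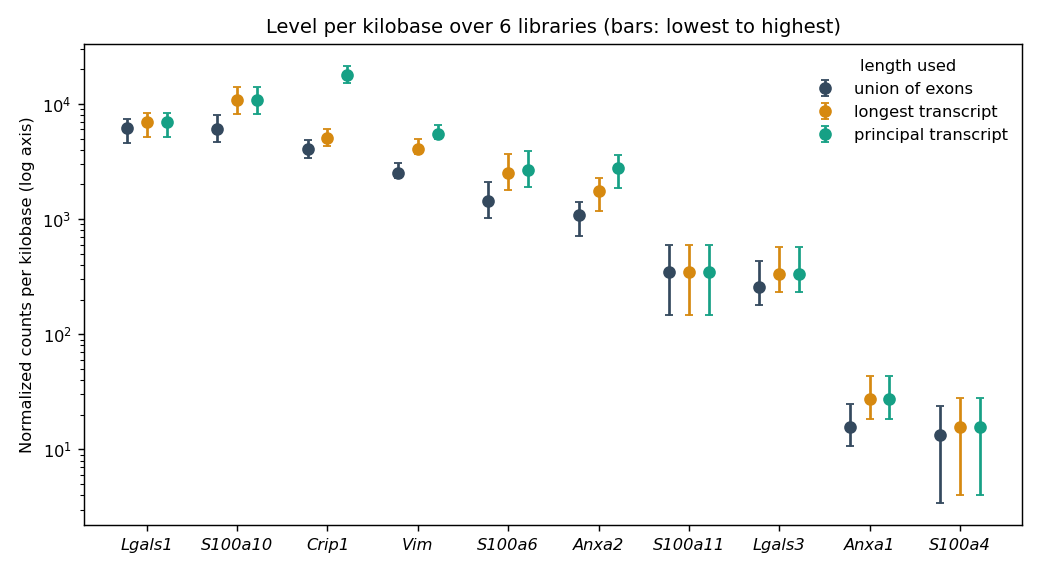
Mean normalized counts per kilobase over 6 libraries on a log axis, with bars from the lowest to the highest library, for 3 definitions of gene length. By the mean of both strains the lower 4 genes keep their order under each length, while Crip1 moves from 4043 to 17864 per kilobase.

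Within a strain, most genes of the set deviated from the strain mean in the same libraries. B6 library 4 was the lowest of its strain for 8 of the 9 tested genes, all but S100a11, where it was the highest. NOD library 10 was the highest of its strain for 7 of 9 (not Lgals1 or S100a11), and for S100a11 it was the lowest. Over all genes tested, B6 library 4 was the lowest of its strain in 27.7% and NOD library 10 the highest in 39.0%. As a description over 6 libraries with the strain means removed, Pearson's r between pairs without S100a11 ran from 0.048 to 0.985 (median 0.784, 28 pairs). Between S100a11 and the other 8 genes it ran from -0.954 to -0.137 (median -0.785). These values share libraries and scaling, and 3 libraries per strain leave few independent points.

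**Figure D4:**
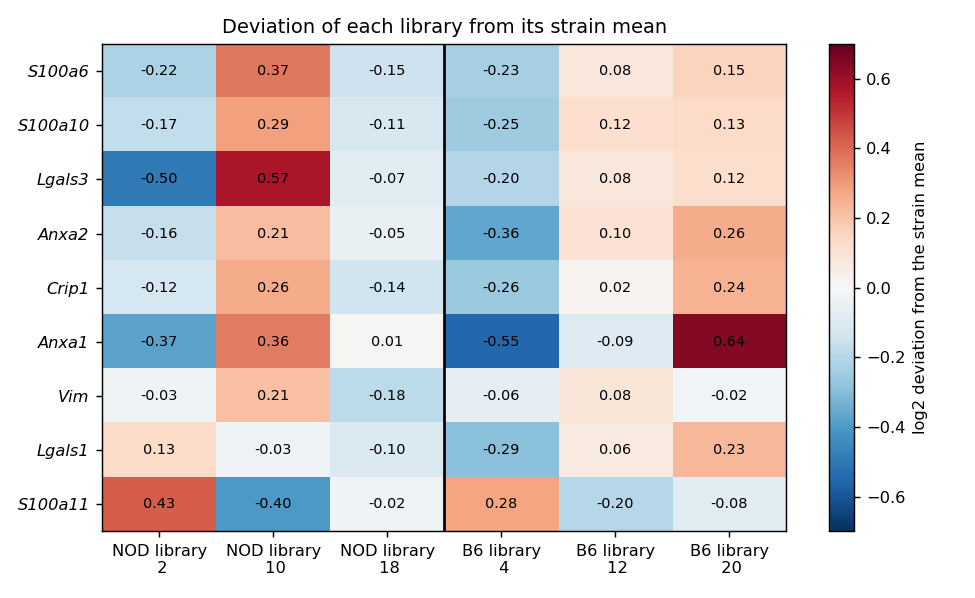
log2(value + 1) of each tested gene in each library minus the mean of its strain, with red above and blue below that mean. NOD library 10 is above its strain mean in 7 of 9 genes and B6 library 4 is below in 8 of 9, and S100a11 takes the opposite sign in both.

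Among the genes whose within-strain deviations were most like the mean of the set were Dynll1 (Pearson's r of 0.998 over 6 libraries), Rps19 (0.997), Rps7 (0.996) and Rack1 (0.995). They were taken from 3578 genes with a mean of at least 1000 normalized counts, of which 4.22% exceeded 0.9, and the values are a description. Dynll1, which encodes a dynein light chain, stood at 1095, 1410 and 1074 in NOD and at 1090, 1320 and 1465 in B6. The summed level of 83 ribosomal protein genes moved in the same libraries. It was 5.70%, 6.27% and 5.34% of normalized counts in NOD libraries 2, 10 and 18, and 4.67%, 5.82% and 6.20% in B6 libraries 4, 12 and 20. Short transcripts (principal transcript of at most 1000 bases, 732 genes) had a median within-strain deviation of 0.08 in NOD library 10, -0.10 in B6 library 4 and 0.14 in B6 library 20. The part of these library differences in the values of the set was not tested.

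Among partners of the encoded proteins, 17 of 20 listed genes were tested. Of these partner and receptor genes, 3 were called higher and 1 lower, against 4.59% and 5.30% of all genes tested. Each of these 4 calls held with any single library left out. Plaur encodes the urokinase receptor, which focuses plasminogen activation at the cell surface. Its NOD libraries read 799, 1503 and 953 and its B6 libraries 114, 165 and 135. The lowest NOD library was thus several times the highest B6 library (log2 fold change 2.93 ± 0.22, limma adjusted p = 7.6e-06). Plgrkt, a plasminogen receptor gene, was among those not called. Ahnak, the large scaffold that the annexin A2 and S100A10 complex binds, stood at 59069 ± 10308 in NOD and 57377 ± 8450 in B6 (log2 difference 0.04, adjusted p = 0.93). Myh9, which encodes the myosin heavy chain bound by S100A4, averaged 32194 ± 4809 and 39750 ± 5333 and was not called (-0.31, adjusted p = 0.28). Cacybp, the calcyclin-binding protein gene, stood at 1073 ± 68.7 and 949 ± 103 (adjusted p = 0.48), and Ager, which encodes the S100 receptor RAGE, at 39.3 ± 6.66 and 39.3 ± 12.5 (adjusted p = 0.97). The formyl peptide receptor genes Fpr1 and Fpr2 were not analysed here.

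Of 5 tested genes for enzymes that build glycans, 1 was called lower (Mgat5), 1 higher (Gcnt1) and 3 were not called. Mgat5, whose enzyme adds the branch on N-glycans that galectin-3 prefers, read 2362, 2047 and 1798 in NOD libraries and 3913, 4288 and 3828 in B6 libraries. The strains did not overlap, and Mgat5 fell by 0.96 on the log2 scale (SE 0.12, limma adjusted p = 0.00026). Gcnt1, which encodes the enzyme that starts core 2 O-glycans, stood at 1049, 845 and 764 in NOD and at 455, 394 and 501 in B6 (0.97 ± 0.15, adjusted p = 0.0014). The genes not called were C1galt1 (-0.09, adjusted p = 0.86), Fut8 (-0.14, adjusted p = 0.71) and St6gal1 (0.06, adjusted p = 0.81). Itgb1, an integrin chain that galectins bind, rose from 7824 ± 483 in B6 to 13609 ± 1967 in NOD (0.79 ± 0.12, adjusted p = 0.0013). The glycoprotein genes Ptprc, which encodes CD45 (0.07, adjusted p = 0.81), and Spn, which encodes CD43 (0.31, adjusted p = 0.12), were not called.

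**Figure D5:**
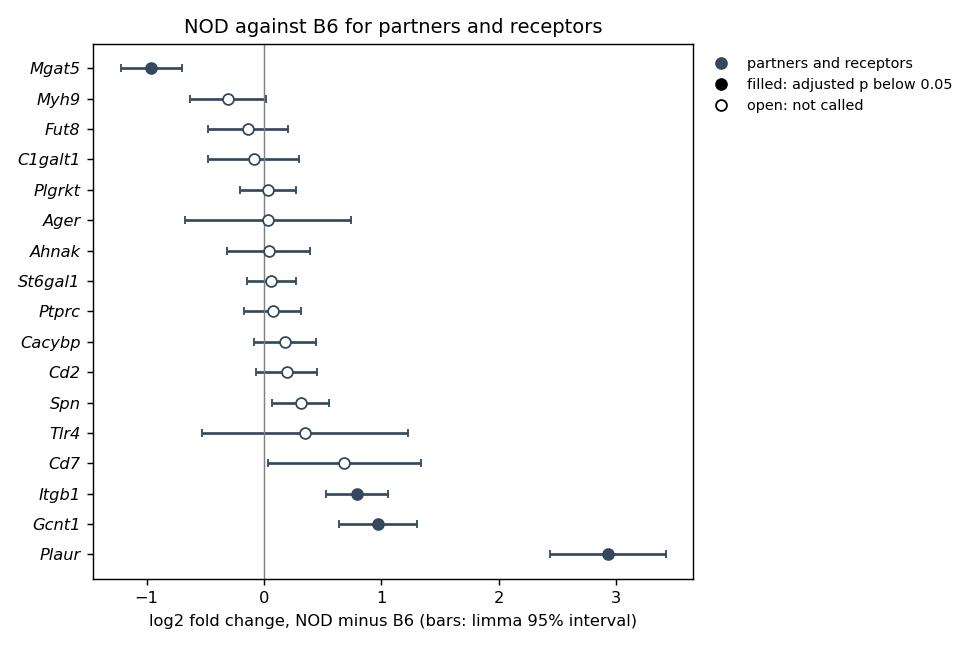
log2 fold change of NOD minus B6 with limma's 95% interval for 17 tested genes of partners and receptors, filled where the adjusted p was below 0.05. Plaur (2.93), Gcnt1 (0.97) and Itgb1 (0.79) are filled to the right of 0 and Mgat5 (-0.96) to the left.

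Genes often found with the set in effector and memory T cells were called in both directions. Of 25 tested, 4 were called higher (Tagln2, Cd44, Itgb1 and Cxcr6) and 2 lower (Capg and Id2). Their list had a median log2 fold change of 0.04. Over all genes tested, 4.59% were called higher and 5.30% lower, with a median of 0.01. The lists were chosen with earlier results known, and their counts were not tested against these shares. Cd44, the hyaluronan receptor of antigen-experienced T cells, averaged 8875 ± 857 in NOD and 6244 ± 837 in B6 (0.51 ± 0.12, limma adjusted p = 0.021). The gene with the greater fall of the 2, Capg, caps actin filaments and averaged 2034 ± 426 and 4516 ± 266 (-1.17 ± 0.14, adjusted p = 0.00025). The calls of Cd44 and Cxcr6 were each lost in 3 of 6 fits with a library left out, and that of Tagln2 in 5 of 6. The list held 1 higher gene without NOD library 2 or without B6 library 4, and 4 lower genes without NOD library 10. Of 14 genes of resting and naive T cells, 3 were called higher (Satb1, S1pr1 and Igfbp4) and 2 lower (Il7r and Actn1). The median log2 fold change of these 14 genes was 0.28, against 0.01 over all genes tested. The count of higher genes was 5 without NOD library 10, and that of lower genes was 1 without either B6 library 4 or 20, or without NOD library 18. Of 19 cytoskeletal genes, Tmsb10 and Vcl were called higher and Tpm3 lower, with a median log2 fold change of 0.05. Vcl, which encodes vinculin, stood at 874 ± 120 and 398 ± 40.1 (1.13 ± 0.14, adjusted p = 0.00027). Without B6 library 4 only Vcl stayed called on the higher side, and without NOD library 10 the lower genes numbered 2.

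The sorted identity was checked on its markers. All 11 Treg and T cell markers listed were present, and their summed level was 165241 to 179254 normalized counts in NOD and 153601 to 168741 in B6. Of the 11, Thy1 (2.11-fold, limma adjusted p = 6.2e-05) and Cd3e (1.72-fold, adjusted p = 0.0022) were called higher in NOD, and Trac was called lower (ratio 0.685, adjusted p = 0.0072). The other 8, Foxp3 among them, were not called. Thy1.1 was also a marker of the sort. Genes of the set are also abundant in myeloid and stromal cells, so markers of such cells were measured. The 12 myeloid and neutrophil markers summed to 186 to 283 normalized counts in NOD and 254 to 335 in B6, with Itgam and Spi1 at 10 or less in every library and Tyrobp called lower in NOD. The 10 dendritic cell markers summed to 2115 to 2688 in NOD and 2908 to 3070 in B6, where Zbtb46, H2-Aa and Cd74 were called lower and Flt3 and Siglech stayed at 10 or less. The dendritic cell sum was lower in every NOD library, as was S100a11. The largest terms of that sum were Zbtb46 (713 to 1272 over the 6 libraries), Cst3 (522 to 982) and Cd74 (315 to 792). Itgax, by contrast, reached at most 16, so the sum mainly follows those larger terms. Members of the dendritic cell list did not share a direction. H2-Ab1 was lower in every NOD library without a call (51 ± 7.94 in NOD, 93.3 ± 16.5 in B6, limma adjusted p = 0.054). Itgax, Flt3, Xcr1 and Siglech also had lower means in NOD. Cst3 averaged 764 ± 195 in NOD and 545 ± 34.5 in B6, with all NOD libraries above all B6 libraries, and H2-Eb1 averaged 251 ± 82.1 and 155 ± 39.8. Neither was called (limma adjusted p = 0.14 for both). The myeloid sums overlapped between strains. Within them, Tyrobp, Fcer1g and Adgre1 lay lower in every NOD library, at 44 normalized counts or fewer throughout. Lyz2 averaged 7 ± 6.93 in NOD and 28 ± 13.2 in B6, with overlap. Mpeg1 lay higher in every NOD library (95.7 ± 18.4 against 54 ± 21.3), and Cd14 also had the higher mean in NOD. The part of the myeloid and dendritic cell markers in the S100a11 difference was not tested. The 6 fibroblast markers summed to 61 to 168 in NOD and 62 to 94 in B6, with Col1a1, Pdgfra, Pdgfrb and Dcn at 10 or less. Over all 55 markers of other cells, 24 were tested. Of these, 1 (Cd8a) was called higher and 5 lower (the 4 named and Rag1), against 4.59% and 5.30% of all genes tested. Of the 6 calls, only that of Cd74 held with every single library left out. Although the cells were sorted as CD8-, Cd8a stood at 124, 35 and 100 in NOD and at 10, 17 and 18 in B6 (limma adjusted p = 0.0075). Cd8b1 averaged 129 ± 10.1 in NOD and 112 ± 17.0 in B6 and was not called.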

How the data were processed

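RNA was measured in 6 libraries of sorted thymic regulatory T cells, 3 per strain. The deposited table holds 32801 gene symbols. Per the submitters' processing notes, Trimmomatic, STAR and DESeq2 were used with the mm10 build, without versions. No counter, annotation or strand setting is named in the sources used here. The sample values are scores, which are counts that the authors scaled by library size factors and rounded, per the file headers. The deposited table also gives the authors' log2 fold change, p-value and adjusted p-value. Columns were matched to strain by name, and 0 sample columns were left unused.

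A gene was kept if 3 or more libraries (2 where libraries were left out) reached 10 normalized counts, which left 16442. They were fitted with limma 3.58.1 in R 4.3.3 on log2(value + 1), where strain was the sole term and the moderation used a trend. Two-sided p-values were adjusted by Benjamini and Hochberg's method over all 16442 genes, and calls needed an adjusted p below 0.05. The fit was run on simulated data with a spread setting shared by all genes, as a check of the code. That run does not measure power for the genes of the set. Exon lengths and positions came from GENCODE M21 (GRCm38, the assembly of mm10). Near-identical copies were sought with blastn 2.17.0 among annotated transcripts, at 90% identity or more over at least 100 bases. The 10 genes and the gene lists were chosen with earlier results of these data known. From each list, called genes (up to 4 in each direction) and direct partners of the 10 genes are named. Anxa7 was named after its values were seen. The alternatives were other pseudocounts, filters, scalings and moderation settings, and each library left out in turn. Leaving out pairs of libraries and the principal-transcript length were chosen after seeing the data.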

Additional observations from a re-analysis of the deposited data

How the results depend on the processing

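No paired analysis was possible because the columns carry library numbers, which match no replicate number of the labels, and no label ties a library of one strain to one of the other. The 9 tested genes of the set kept their side of the threshold under every other pseudocount, filter, scaling and moderation setting that tested them, and with each library left out. With a minimum of 50 normalized counts Anxa1 was not tested. Leaving out NOD library 10 and B6 library 4 together, chosen after the data were seen, ended the call of S100a11 (log2 fold change -0.98, limma adjusted p = 0.056), so that 0 genes of the set were called lower. It also turned S100a10 (-0.027), Vim (-0.00019) and Ahnak (-0.11), and over all genes 454 were called higher and 563 lower. The S100a11 call held without NOD library 10 and B6 library 12, also chosen after the data were seen.

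With single libraries left out, 490 to 781 genes were called higher and 569 to 1011 lower over all genes, with the lowest counts without NOD library 18 and without B6 library 4. S100a11 ran from -1.53 to -1.11, Anxa1 from -0.41 to 0.19 and Crip1 from -0.19 to 0.063. Anxa1 turned to 0.054 without NOD library 2, and Crip1 to 0.0027 and 0.010 without NOD libraries 2 and 18. Over these omissions Ager ran from -0.20 to 0.26 and Ahnak from -0.10 to 0.15. Ager turned to -0.20 and -0.096 without B6 library 20 and NOD library 10, and Ahnak to -0.062 and -0.10 without the same libraries. With equal library totals Ager was at -0.0030 and Ahnak at -0.0010, and Ager was at -0.078 without NOD library 10 and B6 library 12.

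The same omissions gave 0 to 1 lower genes among the other S100 genes, 0 to 1 lower among other annexins, and 0 to 3 lower among LIM-domain and intermediate filament genes. For effector and memory genes they gave 1 to 3 higher and 2 to 4 lower, for resting and naive genes 3 to 5 higher and 1 to 2 lower, for cytoskeletal genes 1 to 2 higher and 1 to 2 lower, and for markers of other cells 0 to 2 higher and 1 to 5 lower. Other annexins had 1 lower gene with equal library totals, with quantile normalization and with either pair of libraries left out, and LIM-domain and intermediate filament genes had 1 lower with either pair left out. Without a trend in the moderation, higher genes numbered 1 for effector and memory, 1 for resting and naive and 1 for cytoskeletal genes, with 0 lower resting and naive genes and 2 lower markers of other cells. Without NOD library 10 and B6 library 4 there was 1 higher effector and memory gene, 1 lower resting and naive gene, 1 higher cytoskeletal gene and 1 lower marker of other cells. Without NOD library 10 and B6 library 12 there were 2 higher effector and memory genes and 2 lower markers of other cells, and a minimum of 50 normalized counts left 0 higher markers. The cause of these changes was not tested. Anxa1 and S100a4 had the lowest values of the set, at 72 normalized counts or fewer in every library.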
